A study of Mus musculus with 3 samples.

Results

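The genes described here encode the histones, the proteins that package DNA into chromatin. They were taken by rule as every gene with a protein-coding transcript whose symbol begins with Hist1h to Hist4h, H2af, H3f or H1f, which gave 82 genes of 21901 with a protein-coding transcript and of 55536 mouse genes in the gene tables. Of these, 67 are replication-dependent genes (Hist1h to Hist4h) and 15 are variant genes (H2af, H3f and H1f). Newer nomenclature has other symbols for many of them, and the symbols of the files are kept.

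The RNA came from regulatory T cells (Treg), a kind of CD4 T cell that holds immune responses in check, taken as primary cells from a male adult mouse of 4 months with the strain name Foxp3CreERT2 x Rosa26YFP. That name joins an allele in which the Treg factor Foxp3 drives a tamoxifen-inducible Cre to a reporter at Rosa26. All 3 libraries, numbered 1, 2 and 3, are technical replicates of 1 biological replicate per the labels, and all were made from polyadenylated RNA, so there is 1 group and no comparison between conditions. Every SD and p-value below measures only the spread between these 3 libraries.

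Replication-dependent histone genes are transcribed in S phase, when new DNA needs new nucleosomes. Their mRNAs are the known exception among animal mRNAs in that they end just after a conserved stem-loop, which the protein SLBP binds, and carry no poly(A) tail. Variant genes are transcribed throughout the cell cycle, and their mRNAs are spliced in most cases and polyadenylated like other mRNAs. Some replication-dependent genes are known to give polyadenylated transcripts as well, which end at a poly(A) signal downstream of the stem-loop.

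The stem-loop was found after the stop codon of 46 of the 67 replication-dependent genes and of 1 of the 15 variants, H2afx, against 55 of the 21901 genes with a protein-coding transcript (0.251%). It was searched, on the sense strand of the GENCODE M21 transcripts, as the histone stem-loop with a stem of 6 base pairs and a loop of 4 bases. These 6 are from genes that the results turn on, with the stem-loop in capitals and mm10 coordinates of the capitals. They differ in the middle of the stem by histone class.
Hist1h2ap (chr13:21833029-21833044, minus strand): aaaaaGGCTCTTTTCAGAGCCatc
Hist1h2ae (chr13:23570668-23570683, minus strand): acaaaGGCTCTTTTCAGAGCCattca
Hist1h1c (chr13:23739512-23739527, plus strand): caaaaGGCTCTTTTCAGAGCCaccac
Hist1h4d (chr13:23581950-23581965, plus strand): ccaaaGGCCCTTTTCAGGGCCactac
Hist1h4i (chr13:22040966-22040981, minus strand): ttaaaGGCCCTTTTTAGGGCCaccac
H2afx (chr9:44335240-44335255, plus strand): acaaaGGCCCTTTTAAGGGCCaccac
The form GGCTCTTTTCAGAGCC, shown for Hist1h2ap, stood in 26 genes (3 H1, 10 H2A, 8 H2B and 5 H3) and in no H4 gene. The form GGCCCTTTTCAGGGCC, shown for Hist1h4d, stood in 7 genes, all H4. H2afx, an H2A variant, had a form found in no other member, with the stem of Hist1h4d and Hist1h4i. In the 46 replication-dependent genes the stem-loop began 21 to 58 bases after the stop codon, with a median of 31 bases.

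A poly(A) signal, searched as AATAAA or ATTAAA on the sense strand in the last 50 bases of a coding transcript, was found in 17 of the 67 replication-dependent genes and in 10 of the 15 variants. Of all genes with a protein-coding transcript, 77.9% had one. These 4 genes carry both elements, and the signal is in capitals.
Hist1h1c (chr13:23740342-23740347, plus strand): gcttctAATAAAaagcgt
Hist1h2ae (chr13:23570539-23570544, minus strand): ttctccAATAAAtgggtc
Hist3h2a (chr11:58956797-58956802, plus strand): atgcccAATAAAataaga
H2afx (chr9:44336043-44336048, plus strand): aattttATTAAAggatcg
In these models 840 bases follow the stem-loop in Hist1h1c, 151 in Hist1h2ae, 1643 in Hist3h2a and 822 in H2afx.

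Levels are in TPM, the deposited length-normalised unit, which divides reads by effective transcript length, so that levels of different genes can be set side by side. The replication-dependent genes summed to 332, 310.2 and 269.7 TPM in libraries 1, 2 and 3, and the variants to 3654, 3311 and 3033 TPM. Replication-dependent genes thus held 8.35% ± 0.202 (SD, n = 3) of all histone TPM. In the posterior mean TPM that the same tables give, this share was 9.003%, and in the TPM of the second transcript table, which rests on a transcript index, it was 11.504%. Without division by length it was lower, at 4.54% in expected counts and 6.23% in M4 gene counts, a further deposited table. As reads, the replication-dependent genes took 1492 expected counts, or 0.0160% (95% Wilson interval 0.0153 to 0.0169) of library 1. They took 1168, or 0.0127% (0.0120 to 0.0135), of library 2 and 941, or 0.0114% (0.0107 to 0.0121), of library 3. Intervals cover counting error only. In these bulk libraries, fewer cells of a kind and less RNA per cell cannot be told apart.

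Detection was set at a level of at least 1 TPM in each of the libraries. By this rule 26 of the 67 replication-dependent genes (38.8%) and 8 of the 15 variants (53.3%) were detected, 34 of 82 in all, against 46.1% of genes with a protein-coding transcript. With posterior mean TPM 40 of the 67 replication-dependent genes reached the limit and the variants stayed at 8 of 15, so the order of the sets depends on the TPM used. Of the replication-dependent genes, 32 had reads in every library and 11 in none. Nearest to the limit by mean level were the H4 gene Hist1h4f above it, at 1.51, 1.03 and 0.95 TPM, and the H3 gene Hist1h3c below it, at 1.29, 1.01 and 0 TPM. Both missed detection through library 3.

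**Figure D1:**
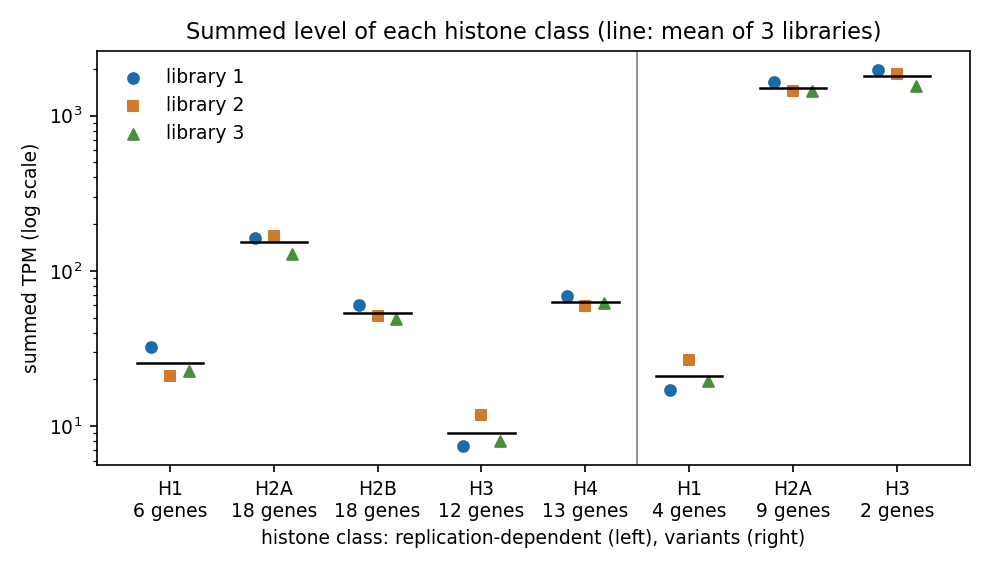
Summed TPM of each histone class in each library (log axis), with replication-dependent classes on the left and variant classes on the right. Each point is 1 library and each line the mean of 3. Replication-dependent H3 genes sum to 7.40 to 11.7 TPM, against 1564 to 1980.4 TPM for the H3 variants.

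Among replication-dependent genes the H2A class held the most TPM, with 163.8, 166.9 and 127.8 over 18 genes, or 50.2% ± 3.29 (SD, n = 3) of the replication-dependent sum. Most of it came from Hist1h2ap and Hist2h2aa2, with means of 80.5 and 37.9 TPM. Both share most of their sequence with other genes and were at 0 in M4 gene counts. The place of H2A among the classes thus depends on how reads were divided. H4 followed with 68.5, 59.1 and 62.1 TPM over 13 genes, and H2B with 60, 51.5 and 49.0 TPM over 18 genes. The linker histone H1 genes, 6 in number, had 32.3, 21.01 and 22.8 TPM. H3 was lowest, with 7.40, 11.7 and 7.97 TPM over 12 genes, from 33, 30 and 24 counts. The class sums of H2A and H3 did not overlap with any other class in any library, while H4 at 63.2 ± 4.84 TPM and H2B at 53.5 ± 5.76 TPM (SD, n = 3 each) overlapped. Nucleosomes hold the core histones in equal numbers, and the replication-dependent sums of these 4 classes in polyadenylated RNA differed. These sums are only a part of each class where variants exist. The variants had mean sums of 1516 TPM in H2A and 1795 TPM in H3.

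The H3 class showed the widest gap between its replication-dependent and variant genes. The 12 replication-dependent H3 genes made 0.504% ± 0.130 (SD, n = 3) of H3 TPM, and H3f3a and H3f3b made the rest. Within H2A the replication-dependent share was 9.16% ± 1.14. In the linker class it was 54.3% ± 10.6, at 65.2%, 44.0% and 53.7% in libraries 1, 2 and 3, so that neither kind was higher in all libraries. H2B and H4 have no variant member under the rule. Only Hist1h3e of the H3 genes was detected among the replication-dependent ones, at 2.09, 1.73 and 1.65 TPM, from 11, 8 and 7 counts.

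**Figure D2:**
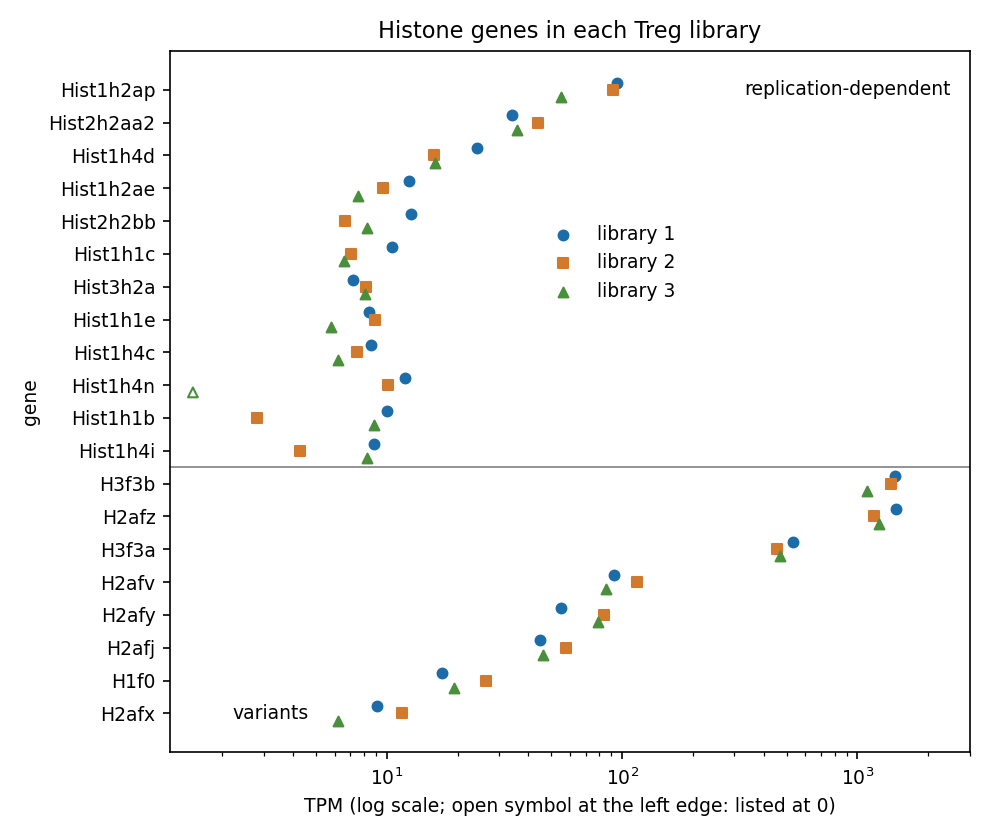
TPM in each library (log axis) of the 12 replication-dependent genes with the highest mean and of the 8 detected variants. Each symbol is 1 library, and the open symbol marks Hist1h4n, listed at 0 in library 3. Hist1h2ap, at 54.8 TPM or more, is the highest replication-dependent gene in every library, and H3f3b, H2afz and H3f3a, at 457 TPM or more, lie above it and all other members.

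The replication-dependent sum rested on few genes. Hist1h2ap (ENSMUSG00000094777.2), an H2A gene of the large histone cluster on mm10 chromosome 13, had 95.5, 91.0 and 54.8 TPM and made 26.5% of the mean sum. Hist2h2aa2, an H2A gene of the smaller cluster on chromosome 3, had 33.9, 43.8 and 35.9 TPM. The H4 gene Hist1h4d (ENSMUSG00000061482.7) had 24.2, 15.9 and 15.96 TPM. These 3 genes made 45.1% of the sum, and the highest 12 genes made 68.6%. Hist1h2ap ranked 1729 and Hist2h2aa2 3361 by mean TPM among the 21901 genes with a protein-coding transcript. Hist1h2ap shares 93.1% and Hist2h2aa2 100% of its 50-base stretches with other genes, so their levels depend on how reads of several genes were divided, as described further on.

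The rest of the 12 genes with the highest means reached 12.7 TPM at most. The H2A gene Hist1h2ae had 12.4, 9.68 and 7.52 TPM, and the H2B gene Hist2h2bb had 12.7, 6.64 and 8.22 TPM, from only 21, 9 and 10 counts. Hist3h2a, an H2A gene on chromosome 11, varied least among them, at 7.15, 8.17 and 8.06 TPM. The H4 gene Hist1h4c had 8.53, 7.44 and 6.21 TPM, and Hist1h4i, another H4 gene, had 8.81, 4.27 and 8.20 TPM. Libraries overlapped widely across this group, and the order of these genes differed between libraries.

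The linker histone genes differed among themselves. Hist1h1c, which encodes H1.2, had 10.6, 7.05 and 6.58 TPM, from 118, 67 and 57 counts. Hist1h1e, which encodes H1.4, had 8.39, 8.94 and 5.79 TPM, from 119, 108 and 63 counts. Hist1h1b, which encodes H1.5, had 10.03, 2.82 and 8.82 TPM, with library 2 apart from the others. Hist1h1a, for H1.1, had 3.06, 2.06 and 1.43 TPM. Hist1h1d, for H1.3, had 0.23, 0.14 and 0.14 TPM, over a model of 7425 bases that runs 4884 bases past the stem-loop. Hist1h1t, the testis H1, had no reads.

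By location, the 54 genes of the Hist1 cluster (mm10 chromosome 13, 21715763 to 23934851) summed to 259.7, 227.8 and 203.6 TPM, with 19 detected. The 10 Hist2 genes (chromosome 3, 96219865 to 96270132) summed to 59.7, 68.1 and 54.3 TPM, with 5 detected. Both Hist3 genes (chromosome 11) were detected, with a sum of 12.1, 13.4 and 11.3 TPM. Hist4h4, alone on chromosome 6, had 0.51, 0.81 and 0.54 TPM. The testis genes Hist1h2ba and Hist1h2aa, which encode TH2B and TH2A, had no reads. For the 11 replication-dependent genes without reads, 3 counts would have given 0.225 to 2.33 TPM. This range limits a level only where a gene's reads were not assigned to a copy. The sequence these genes share with other genes ran from 0% in Hist1h1t to 100% in Hist2h3c1, and was 93.5% in Hist1h2ao. For genes that share most of their sequence a count of 0 sets no limit, because their reads may have been assigned to another gene.

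**Figure D3:**
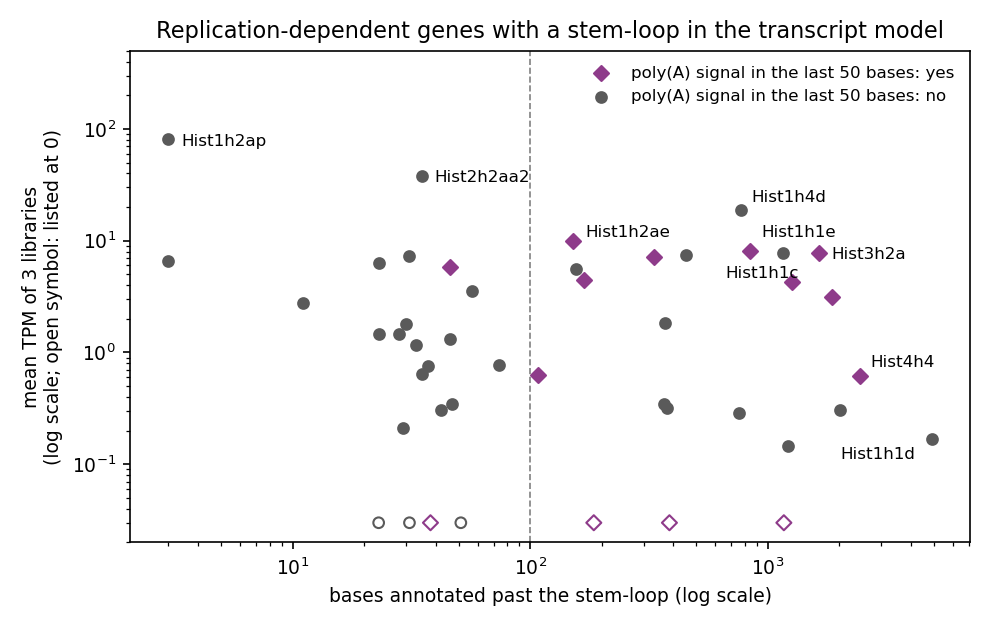
Mean TPM of the 46 replication-dependent genes with a stem-loop against the number of bases that the annotated transcript holds past it (both axes log). Diamonds have a poly(A) signal in the last 50 bases, open symbols are listed at 0, and the dashed line marks 100 bases. To the right of it 12 of 23 genes were detected, and to the left 6 of 23.

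The annotated 3′ ends fell into 3 kinds. In 23 replication-dependent genes the model ran 100 bases or more past the stem-loop, and 12 of these (52.2%) were detected. In 23 others it ended within 100 bases of the stem-loop, where processed replication-dependent mRNAs end, and 6 (26.1%) were detected. In 21 genes the model held no stem-loop, and 8 (38.1%) were detected. For all 3 the share stood beside 46.1% of genes with a protein-coding transcript. The sums ran the other way, with 88.7 ± 10.1 TPM for the extended models and 161 ± 30.6 TPM (SD, n = 3 each) for the short ones, of which Hist1h2ap and Hist2h2aa2 made most. Median levels were 1.82 and 1.33 TPM.

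The kinds of model also differ in other ways. A poly(A) signal stood in 12 of the 23 extended models, in 2 of the 23 short ones and in 3 of the 21 without a stem-loop. The median share of sequence held in common with other genes was 24.6% in extended models, 59.4% in short ones and 79.7% in those without a stem-loop. Median lengths were 1249, 485 and 396 bases. Of all 17 replication-dependent genes with a poly(A) signal in a coding transcript 11 were detected, with a median of 4.30 TPM over the 17. Of the 50 without one 15 were detected, with a median of 1.40 TPM over the 50. The signal need not lie in the transcript that was detected. In Hist1h2bq and Hist1h2br the coding transcripts with a signal had at most 0.14 TPM. In Hist1h2be the coding transcripts had at most 0.49 TPM, and most TPM went to a transcript with no coding sequence. At the limit of 1 TPM the shares detected in these libraries of polyadenylated RNA differed between kinds of gene model, and this difference was not tested. For short models 1 TPM can be less than 3 counts, which were 1.21 TPM for Hist1h2ap in library 1. The kind of model also goes with length and sequence sharing, and the part of each was not tested.

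The variant genes were led by H3f3b and H2afz. H3f3b (ENSMUSG00000016559.14, chromosome 11, 116021912 to 116027962), 1 of the 2 genes for H3.3, the H3 that is placed outside replication, had 1446, 1385 and 1094 TPM. H2afz (ENSMUSG00000037894.13, chromosome 3, 137864487 to 137866922), which encodes H2A.Z, had 1455, 1173 and 1233 TPM. Their order was not the same in all libraries, and they ranked 90 and 92 among genes with a protein-coding transcript. H3f3a, the second H3.3 gene, had 534, 457 and 469 TPM, below both in every library. These 3 genes made 92.5% of the variant sum.

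The other detected variants reached 115.9 TPM at most. H2afv, the second H2A.Z gene, had 91.9, 115.9 and 85.5 TPM. H2afy, which encodes macroH2A1, had 55.0, 83.8 and 79.2 TPM, and H2afj, which encodes H2A.J, had 44.8, 57.9 and 46.2 TPM. The ranges of neighbours in this order overlapped for H2afy and H2afj and did not for H2afv and H2afy. The replacement linker histone gene H1f0 had 17.2, 26.3 and 19.4 TPM. H2afx, whose product is phosphorylated around DNA breaks, was lowest at 9.06, 11.6 and 6.20 TPM.

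Of the 7 variants not detected, 5 had no reads. These were H1fx, the testis gene H1fnt and the testis genes H2afb1, H2afb2 and H2afb3. The oocyte linker gene H1foo had 0, 0.42 and 0.26 TPM, and H2afy2, which encodes macroH2A2, had 0.08, 0.07 and 0 TPM. For those without reads, 3 counts would have given 0.328 to 2.82 TPM.

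Transcript use was described for the detected variants by the percent of a gene's TPM that each transcript takes. H2afz gave 96.5% ± 0.344 (SD, n = 3) to H2afz-201, its transcript of 5 exons. H3f3b gave 59.3% ± 2.54 to the coding transcript H3f3b-201 and 37.3% ± 2.04 to H3f3b-204, annotated as a processed transcript with no coding sequence. H3f3a gave 59.0% ± 1.55 to H3f3a-201. H2afv gave 74.0% ± 1.96 to H2afv-201, which holds 233 bases after the stop codon, and the rest to H2afv-202, which holds 1142. In H2afj, H2afj-202 of 2 exons took 73.5% ± 3.85 and H2afj-201 of 1 exon the rest. H2afy used 2 coding transcripts most, H2afy-202 at 53.1% ± 6.88 and H2afy-201 at 30.3% ± 6.02, and in all libraries the first was higher. H1f0 and H2afx each have 1 annotated transcript.

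Near-identical copies affect many replication-dependent genes. Of the 67 genes, 32 shared 50% or more of their 50-base stretches with another gene, and 8 of these were detected, against 18 of the 35 that shared less. Copies that share 80% or more of their sequence are therefore also given as sums. Hist1h4n, an H4 gene on chromosome 13, had 11.9, 10.1 and 0 TPM, while its copy Hist1h4m had 0.23, 0 and 19.6 TPM. In this table library 3 thus had its reads on one copy and libraries 1 and 2 on the other, and the pair summed to 12.2, 10.1 and 19.6 TPM. In the second transcript table the pair was divided otherwise in library 1, where Hist1h4m had 12.2 and Hist1h4n 1.79 TPM. Hist1h2ai, at 0, 0 and 16.01 TPM, belongs to a group of 4 H2A copies with Hist1h2ad, Hist1h2ah and Hist1h2an, which summed to 0.92, 0 and 16.01 TPM.

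**Figure D4:**
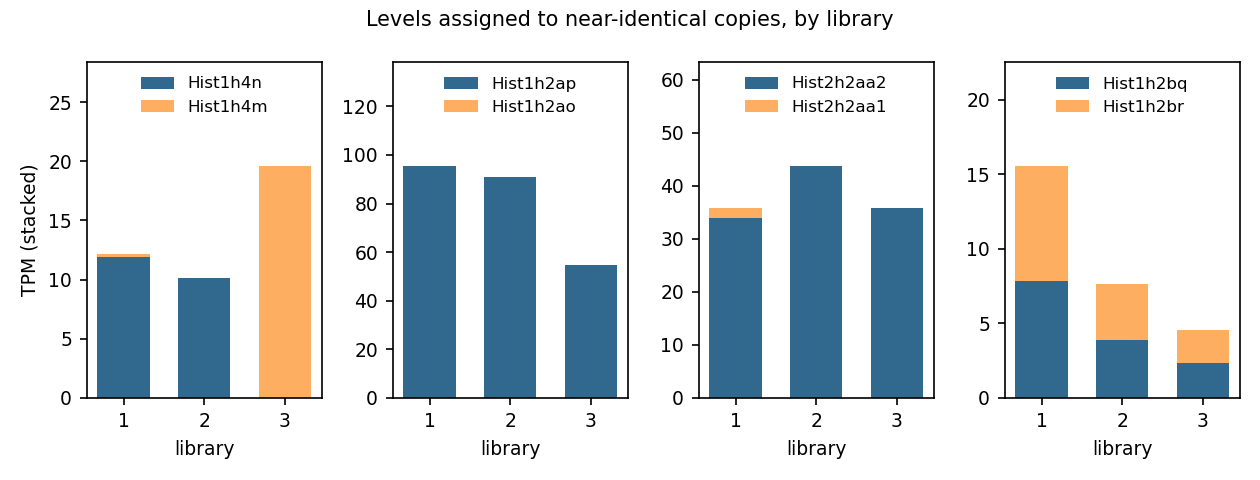
TPM assigned to each of 4 pairs of near-identical genes in libraries 1, 2 and 3, stacked so that the bar height is the pair's sum (each panel has its own scale from 0). Hist1h4n holds nearly all of its pair in libraries 1 and 2 and Hist1h4m all of it in library 3.

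Other pairs were divided in the same way in every library. Hist1h2ap held all of the sum with Hist1h2ao, which had no reads in any library. Hist2h2aa2 held 33.9 of 35.9 TPM with Hist2h2aa1 in library 1 and all of it in the others. Hist1h2bq and Hist1h2br, H2B genes, were split nearly evenly, at 7.82, 3.90 and 2.32 TPM for the first and 7.75, 3.73 and 2.24 TPM for the second. Their sums of 15.6, 7.63 and 4.56 TPM rest on 26.9, 12.7 and 8.70 expected counts. Copies outside the rule also held reads, such as the processed pseudogene Gm8203, at 263, 286 and 266 TPM, in which 16.9% of the 50-base stretches of H2afz recur. Hist3h2a overlaps Trim17 and Hist1h1e overlaps Hist1h2be on the same strand, so their reads are uncertain as well.

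A further gene table gives whole-number counts made from a genome alignment and the older GENCODE M4 annotation, and 79 of the 82 members are in it. Hist1h2ap, with 237, 191 and 104 expected counts, was at 0 in all 3 libraries there. Hist2h2aa2, with 97, 106 and 78 expected counts, was also at 0 in all. Hist1h4n had 42.2 expected counts over the libraries and 6 in the M4 table. These 3 share most of their sequence with copies. Among 28 members in both tables with 30 or more expected counts, 4 shared 50% or more of their sequence and had a median ratio of M4 to expected counts of 0.0711, against 0.958 for the other 24 and 1.16 to 1.19 over 7489 genes.

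**Figure D5:**
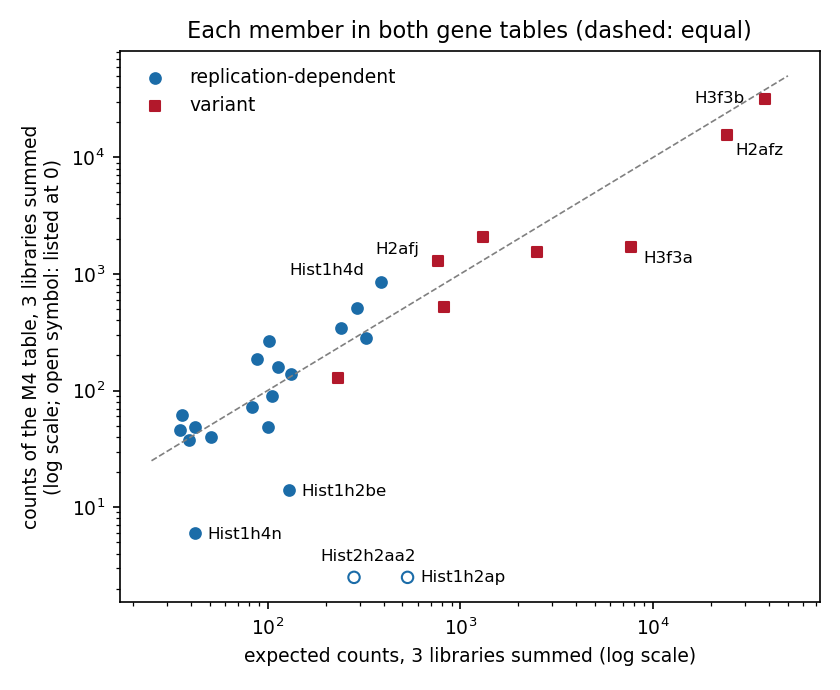
Counts of each member in the M4 gene table against expected counts in the M21 gene table, summed over the 3 libraries (both axes log, dashed line for equal values). Hist1h2ap and Hist2h2aa2 (open symbols) are at 0 in the M4 table, and Hist1h4d lies above the line at 861 against 389 counts.

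Several members with less shared sequence also differed between the tables. H3f3a had 686, 552 and 475 M4 counts and 3253, 2293 and 2145 expected counts. H2afz had 6522, 4640 and 4525 M4 counts and 10393, 7128 and 6752 expected counts. Hist1h4d lay on the other side, at 378, 246 and 237 M4 counts and 188, 105 and 95 expected counts, as did Hist1h1b, at 98, 24 and 64 against 46, 11 and 31. Hist1h2be, an H2B gene, had 14 M4 counts against 129 expected counts, and Hist1h2be-203, a processed transcript with no coding sequence, took 80.04% to 90.7% of its TPM. Summed over the set, M4 counts were 1.05, 0.941 and 1.08 times the expected counts for replication-dependent genes and 0.704, 0.733 and 0.726 times for variants.

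Differences between the libraries were tested with a chi-square test of each gene's counts against the scaled library totals, with Benjamini-Hochberg adjustment over all genes tested. Of 29 members with 30 or more counts, 16 (55.2%) differed, against 54.5% of the 13071 genes tested. By set, 9 of 21 replication-dependent genes (42.9%) and 7 of 8 variants (87.5%) differed, and variants have far more counts. The test takes the counts as given, with no allowance for how reads were divided between copies. Hist1h4n, 1 of the 9, had 24.6, 17.6 and 0 expected counts. The sum with its copy Hist1h4m was 24.98, 17.6 and 27.4. The members' share was close to that of all genes. Without library 1 the numbers were 9 of 23 members and 17.2% of all genes, without library 2 they were 11 of 24 and 49.3%, and without library 3 they were 12 of 27 and 46.5%. Of replication-dependent genes 4 of 15 differed without library 1, 5 of 16 without library 2 and 8 of 19 without library 3.

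Among called members with 100 or more counts, the H2B gene Hist1h2bc had the widest ratio. Its scaled CPM (reads relative to the scaled library totals) was 5.21, 2.21 and 4.495 (ratio 2.35, adjusted p = 0.00753 by the chi-square test over the libraries). The test was made for each gene alone, with edgeR scaling of the totals. Hist1h2ap had 26.8, 20.1 and 12.3 (ratio 2.18, adjusted p = 6.8e-10), lowest in library 3. Hist1h2ae had 6.003, 3.69 and 2.96 (ratio 2.03, adjusted p = 0.0119). Hist1h2ae was no longer called once totals were scaled within bins of gene length (adjusted p = 0.419). Hist1h1c had 13.4, 7.06 and 6.74 (ratio 1.98, adjusted p = 5.0e-06) and Hist1h4d had 21.3, 11.1 and 11.2 (ratio 1.92, adjusted p = 4.6e-09), both highest in library 1. H2afx had 9.97, 10.1 and 5.56 (ratio 1.82, adjusted p = 0.00306), lowest in library 3.

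The high variants also differed, by smaller ratios. H3f3b had scaled CPM of 1834, 1338 and 1104, H2afz 1177, 751.5 and 798.8, and H3f3a 368.5, 241.7 and 253.8, all highest in library 1, with ratios of 1.66, 1.57 and 1.52. H2afy lay the other way, with 81.7 in library 1 and 99.8 and 98.3 in libraries 2 and 3 (ratio 1.22). H2afj, at 28.1, 30.7 and 26.5, did not pass (adjusted p = 0.321), and passed with scaling within bins of gene length (adjusted p = 0.00345). Hist3h2a was among the 12 replication-dependent genes that did not pass, at 12.9, 11.7 and 11.7 (adjusted p = 0.756).

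Promoters were described from RefSeq windows on GRCm38.p6, 250 bases before to 50 after a gene's start, for the 76 members that matched. The TATA motif TATAAA stood on either strand in 56.5% of 62 replication-dependent genes and 7.14% of 14 variants, against 15.7% of 27025 genes. CCAAT stood in 85.5% and 71.4%, against 41.1%. It was found in all replication-dependent H1, H2A, H2B and H3 genes that matched and in 3 of 12 H4 genes. The octamer ATGCAAAT stood in 22.6% and 7.14%, against 1.97%, and among replication-dependent genes it was in 7 H2A and 7 H2B genes and in no H1, H3 or H4 gene. None of these motifs contains another. Windows of neighbouring genes on opposite strands can overlap, as those of Hist1h2ae and Hist1h2bg do. The same motif can then be counted for both genes, and so for both H2A and H2B. The windows hold part of the transcribed region, and a match is not a binding site.

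Within 1000 bases of each other, 13 pairs of members stand head to head, 12 of them an H2A beside an H2B gene with 175 to 305 bases between their starts. Both genes were detected in 3 of the 13 pairs, 1 gene in 4 and none in 6, beside 38.8% detected of all replication-dependent genes. Levels within a pair were unlike in some cases. Hist1h2ap, at 80.5 ± 22.3 TPM (SD, n = 3), faces Hist1h2br at 4.57 ± 2.85 TPM. Each has a near-identical copy (Hist1h2ao and Hist1h2bq), so this contrast depends on how reads were divided between copies. Hist1h2ae, at 9.87 ± 2.45, faces Hist1h2bg at 5.57 ± 1.54 TPM. Hist2h2ac and Hist2h2be, at 3.56 ± 1.54 and 1.98 ± 0.287 TPM, are the third pair with both detected. Hist1h2ag had no reads, while its partner Hist1h2bj had 6.35 ± 1.37 TPM.

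Of 14 genes for transcription and 3′ end processing of histone mRNA, 12 were detected and 9 of 13 tested differed between libraries, against 46.1% of genes with a protein-coding transcript detected and 54.5% of all genes tested differing. The highest were Cpsf3, the nuclease that cuts pre-mRNA 3′ ends, at 120.2 ± 9.54 TPM (SD, n = 3), and Slbp, the stem-loop binding protein, at 92.8, 97.5 and 84.1 TPM. Lsm10, of the ring of the U7 particle, had 62.1 ± 10.1 TPM. Its partner Lsm11 had 0.83, 1.23 and 1.13 TPM, and Zfp473, of the same particle, was lowest at 0.45 ± 0.0473 TPM. Npat, the activator of histone gene transcription, had 11.1 ± 3.21 TPM, and Eri1, a nuclease that trims histone mRNA ends, had 8.94 ± 2.78 TPM.

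Of 23 chaperones and exchange factors 22 were detected, and 16 of 23 differed between libraries, beside the same 46.1% and 54.5% of all genes. Atrx, which with Daxx places H3.3, was highest at 307.4 ± 23.2 TPM, and Daxx had 139.7 ± 25.8 TPM. Nap1l4, a chaperone of H2A and H2B, had 293 ± 35.2 TPM, and Anp32e, which removes H2A.Z, had 180.2 ± 10.7 TPM. Hira, of the other H3.3 pathway, had 7.86 ± 2.68 TPM. Asf1b, which serves replication-coupled deposition, had 31.4 ± 4.81 TPM, while Chaf1a was lowest at 0.66 ± 0.26 TPM and its partner Chaf1b had 20.6 ± 0.693 TPM.

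Of 22 S phase genes 21 were detected, led by the sliding clamp gene Pcna at 111 ± 9.59 TPM and Mcm6 at 79.2 ± 10.4, with E2f1 lowest at 1.07 ± 0.115 TPM. All 8 mitosis genes were detected, from Bub1 at 2.72 ± 1.17 to Top2a at 40.2 ± 5.96 TPM. The S phase list summed to 673, 763 and 713 TPM and the mitosis list to 115.7, 136.8 and 104.2 TPM. By summed TPM both lists were highest in library 2, where the replication-dependent histone sum lay between those of the other libraries. This order depends on the unit for some genes. Rrm2 had 58.3, 64.2 and 50.7 TPM but scaled CPM of 104.7, 89.3 and 73.1, highest in library 1. Mcm6 was highest in library 2 in both units, with scaled CPM of 175.2, 181.7 and 162.8. Of the tested genes 7 of 22 in the S phase list and 6 of 8 in the mitosis list differed between libraries, against 54.5% of all genes tested.

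Gene totals were 8284381 to 9299054 expected counts. All 6 Treg markers and all 4 T cell markers were detected, with Foxp3 at 27.6, 43.7 and 47.1 TPM. The labels name a bone marrow haematopoietic origin, and of the progenitor markers Gata2 had no reads and Cd34 at most 0.08 TPM, while Kit had 0.34, 1.44 and 1.53 TPM. The coefficient of variation between libraries, from the common dispersion of edgeR over all genes, was 20.2%, and it was 12.5% without library 1. Library 2 stood apart in erythroid markers, which summed to 1681, 9.02 and 1495 TPM in libraries 1, 2 and 3, with 3 of 5 detected. Plasma cell markers summed to 147.3, 21.8 and 195.8 TPM, with 3 of 4 detected, and B cell markers to 151.9, 119.3 and 197.2 TPM, with 6 of 6. Of 5 neutrophil markers none was detected, at sums of 31.1, 0 and 1.82 TPM. By TPM, Hist1h1b, Hist1h4i, Hist1h2bc and Hist2h2bb were among the members lowest in library 2. Others were highest there, such as Hist2h2aa2, Hist1h2bg, Hist2h4, H1f0, H2afv, H2afj and H2afx. By the chi-square test Hist2h2bb did not pass (adjusted p = 0.0533), and Hist1h4i did not with scaling within bins of gene length (adjusted p = 0.0994). Nor did Hist2h2aa2, Hist1h2bg, Hist2h4 and H2afj pass the main chi-square test (adjusted p = 0.466, 0.686, 0.121 and 0.321). With scaling within bins Hist2h2aa2 and H2afj passed (adjusted p = 0.0358 and 0.00345). By scaled CPM H2afv was highest in library 1, at 54.3, 51.0 and 40.6. The part of these other cells in the levels was not tested.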

How the data were processed

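The authors deposited 4 tables per library, on mm10. Per the file headers and the deposited readme, the gene table gives expected counts and TPM per gene from an alignment to the GENCODE M21 transcriptome, and a transcript table adds the percent of gene TPM per transcript. A second transcript table holds deposited estimated counts and TPM from reads and a transcript index, and a further gene table holds deposited counts for GENCODE M4. Neither software nor strand setting is given in the sources used here, so sense and antisense reads cannot be told apart.

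Members were read by the rule on symbols. Values are mean ± SD over 3 libraries, with 95% Wilson intervals for shares of counts and 3 counts as the limit of a count of 0. Genes of the table outside the mouse gene set (0.117% to 0.135% of counts) were left out. Expected counts were rounded to whole numbers, and genes with 30 or more counts in all were tested by chi-square tests of homogeneity against TMM-scaled totals, to which scaled CPM also refers (edgeR 4.0.16, R 4.3.3), adjusted by Benjamini-Hochberg and called at 0.05. On simulated counts for 13070 genes the test called 11 of 12870 unchanged genes, 61 of 100 raised 1.5-fold and 90 of 100 raised 2-fold. Sequence features came from GENCODE M21 and RefSeq (Python 3.11.15, pandas 2.3.3).

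Named are all detected variants, the 12 highest replication-dependent genes, up to 6 called genes of 100 or more counts with the widest ratio, the genes next to 1 TPM, and the highest and lowest of other lists. Other genes given values were chosen after their values were seen. Members, lists and tests were chosen with earlier results of these data known. Alternatives were other scalings (DESeq2 1.42.0 size factors, totals, length bins), minima, tables and leaving out each library.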

Additional observations from a re-analysis of the deposited data

How the results depend on the processing

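The number of detected variants was 8 at 0.5 and 2 TPM, in the other TPM columns and without each library. For replication-dependent genes, 26 at first, posterior mean TPM gave 40, and the other settings gave 20 to 33. Leaving out a library gave 28 to 32. The replication-dependent share of histone TPM was 9.003% with posterior mean TPM, 11.504% with the transcript index table (also once that table was rescaled by its median ratio to the gene table, chosen after seeing the data), 4.54% in expected counts, 6.23% in M4 counts, and 8.25% to 8.45% without 1 library. The replication-dependent sum of 304 TPM was 264 with posterior mean TPM, 243 with the transcript index table, 448.6 once that was rescaled, and 289.9 to 321 without 1 library. The variant sum of 3333 TPM was 2666 and 1869 with the first pair and 3172 to 3482 without 1 library. A median ratio of 0.512 to 0.560 sets the index table apart from the gene table over 6760 genes. Of 20 named members, 14 moved by more than their SD with the index table and 9 once it was rescaled. The 16 of 29 members that differed between libraries (54.5% of all genes tested) became 9 of 23 to 12 of 27 with 1 library left out (17.2% to 49.3% of all genes). Elsewhere they ran from 13 of 20 with a minimum of 100 counts (62.5% of all genes) to 24 of 65 with no minimum (28.2%). The 9 of 21 replication-dependent genes among them became 17 of 55 with no minimum and 16 of 34 with estimated counts (47.8% of all genes). They became 4 of 15 to 8 of 19 with 1 library left out. The members called did not always follow the share over all genes. With scaling within bins of gene length 16 of 29 members differed, against 44.5% of all genes. With M4 gene counts 15 of 28 differed, against 63.7%. Causes were not tested. No paired analysis was possible because there is 1 group. Counts under 30 per gene limit the H3 genes and most copies.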
